A study of Mus musculus with 7 samples.

Results

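The BCL2 family decides whether the outer membrane of the mitochondrion stays intact. Here 10 of its genes, of 55228 rows in the deposited table, were followed in granulosa cells taken from the ovaries of C57BL/6J mice and analysed as primary cells. They were chosen by symbol and not by their values: the pro-survival genes Bcl2, Bcl2l1 and Mcl1, the pore formers Bax and Bak1, and the BH3-only genes Bad, Bid, Bcl2l11, Bbc3 and Pmaip1. The groups were wild-type (WT) cells with 4 libraries and cells labelled Fhl2 KO with 3 libraries, both labelled as untreated. The labels name no age, no knockout construct and no pooling of animals, and do not say whether libraries came from separate animals. The p-values therefore measure the spread between these libraries, which may be technical. The study's title places the work in follicle growth, fertility and signalling through the EGF receptor and YAP.

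Pro-survival members hold BAX and BAK in check by binding them or the BH3-only proteins. When BH3-only proteins prevail, BAX and BAK open pores, cytochrome c leaves the mitochondrion and caspases are activated. In the ovary this pathway is known for follicular atresia, the loss of most growing follicles through apoptosis of their granulosa cells. Much of the family's control is exerted on the proteins (cleavage of BID, phosphorylation of BAD, rapid turnover of MCL-1), which read counts do not show.

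In these libraries the pro-survival genes moved apart: Bcl2l1, which encodes BCL-XL, rose 1.38-fold in KO, and Bcl2, the least abundant of the pro-survival genes, fell to 0.566 of its WT level. Of the pro-death genes, Bax, Bad and Bbc3 rose by 1.44-, 1.27- and 1.43-fold. All 7 had a positive log2 fold change, but 3 of the 7 passed adjusted p 0.05 with edgeR, and Bcl2l11 was level at 0.02. The median log2 fold changes of all genes of like length were 0.30 for Bax, 0.22 for Bad and Bbc3 and 0.15 for Bid. They were -0.04 for Bak1 and -0.10 for Bcl2l11 and Pmaip1. The summed balance of pro-survival over pro-death messages overlapped between the genotypes as counted. Other definitions separated them in opposite directions, KO above WT with length and GC trends divided out and KO below WT as mean log2 levels. All 10 genes passed the filter on low counts. With edgeR, 5 of the 10 (50.0%) passed adjusted p 0.05, 4 higher and 1 lower. Of the 15798 genes tested in the same fit, 29.0% passed, 13.5% higher and 15.6% lower. The genotypes did not overlap for 6 of the 10 members (60.0%), and for 34.2% of all genes tested. The members' median log2 fold change was 0.27, against -0.00018 over all genes tested. The count of 5 became 3 without KO library 3, which ended the calls of Bad and Bbc3, and 7 without KO library 1. With an offset for transcript length and GC content it became 2 (Bcl2l1 and Mcl1), while 3768 of the 15574 genes in that fit passed. Bcl2, Bax, Bad and Bbc3 no longer passed there, with log2 fold changes of -0.41, 0.20, 0.11 and 0.31. The count over all genes, 4588 in the main fit, also moved with each library left out, falling most without KO library 3. It became 1657 there and 6740 without KO library 1, in the same directions as the members' count.

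A few facts of the whole series bear on these values. The libraries held 38855596 to 50514556 counts, and a floor of 3 counts corresponds to 0.0598 to 0.0775 CPM (counts scaled to a common library size). Intervals and floors of this kind cover counting error only. Fhl2 itself was lower in each KO library (47.9 to 66.8 CPM) than in any WT library (101.0 to 114.2 CPM). Reads of Fhl2 thus remained in KO, and the exons they come from are not resolved by gene counts. Levels also depended on transcript length differently between libraries. Relative to the mean library, the slope of log2 CPM on log2 length was 0.0636 to 0.0972 in WT. It was -0.00169, -0.187 and -0.154 in KO libraries 1 to 3. Members are therefore given both as counted and after an offset for transcript length and GC content in the same edgeR model, called the corrected value.

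The granulosa label was checked on 10 markers. Inha (1042 ± 53.5 CPM in WT, SD, n = 4) and Inhba (3096 ± 335 CPM) were abundant, whereas Cyp19a1, the aromatase gene, had 0 counts in all 4 WT libraries and 8, 17 and 6 in the KO libraries. Of the 9 markers tested, 2 were higher and 6 lower in KO. The summed level of 7 surface epithelium markers was 109.2 to 125.5 CPM in WT and 139.1 to 181.1 CPM in KO, with 5 of 7 higher. Most of it came from Krt8 (78.4 CPM, WT mean), which was not called, and Krt18 (33.7 CPM). The summed level of 6 stroma markers was 154.3 to 194.8 CPM in WT and 50.7 to 68.5 CPM in KO, with 4 of 6 lower. Most of it came from Col1a1 and Col1a2 (72.7 and 91.8 CPM, WT means). Dcn (0.517 CPM in WT, 0.690 in KO) was not called. The 9 leukocyte markers summed to 18.9 to 20.6 CPM in WT and 18.9 to 22.8 CPM in KO, with S100a9, Cd3e and Ms4a1 at 0 counts in all libraries and none called. The 5 theca markers summed to 44.6 to 49.1 CPM in WT and 30.5 to 36.1 CPM in KO with 1 of 2 tested lower. Nearly all of that sum was Ptch1 (47.0 CPM in WT, 32.3 in KO, means). Cyp17a1, Insl3 and Lhcgr reached at most 0.272 CPM in a group mean. The 6 endothelial markers summed to at most 2.57 CPM, the 8 oocyte markers to at most 11.4 CPM (1 of 7 tested lower) and the 5 red cell markers to at most 0.597 CPM. The part of the epithelium and stroma differences in the members' changes was not tested, and in bulk RNA fewer cells of a type and less RNA per cell cannot be told apart.

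Promoter sequence is shown for 4 of the members that changed and for Bcl2l11, because these stretches hold letters known from factors tied to the family or to the study: p53, FOXO, cAMP-responsive factors and TEAD, the DNA-binding partner of YAP. RefSeq promoter windows (GRCm38.p6, the build called mm10) were matched by symbol for 9 of the 10 members, with 15 start sites, and the 250 bases before each start were searched on both strands. Each line runs 5′ to 3′ on the gene's strand, with the matched letters in capitals.
Bcl2: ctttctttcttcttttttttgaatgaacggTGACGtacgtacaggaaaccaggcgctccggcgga
Bcl2l1: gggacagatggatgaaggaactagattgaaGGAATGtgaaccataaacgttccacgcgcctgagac
Bax: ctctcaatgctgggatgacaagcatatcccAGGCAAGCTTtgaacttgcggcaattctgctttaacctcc
Bbc3: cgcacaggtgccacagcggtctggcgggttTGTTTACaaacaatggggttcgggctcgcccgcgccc
Bcl2l11: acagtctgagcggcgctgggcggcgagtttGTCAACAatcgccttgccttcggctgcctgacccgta

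The Bcl2 stretch, chr1:106714363-106714427 on the minus strand, holds TGACG, the core of the cAMP response element, 107 bases before the start. The Bcl2l1 stretch, chr2:152831801-152831866 on the minus strand, holds the TEAD letters GGAATG 108 bases before the most upstream of its 3 starts. The Bax stretch, chr7:45467060-45467129 on the minus strand, holds a 10-letter motif, a single arm of the p53 response element (a full element has a pair of arms), 201 bases before the start. The Bbc3 stretch, chr7:16310064-16310130 on the plus strand, holds the FOXO letters GTAAACA read on the other strand, 167 bases before its second start, and the Bcl2l11 stretch, chr2:128127377-128127443 on the plus strand, holds the FOXO variant GTCAACA 168 bases before its second start. None of these stretches overlaps an annotated exon.

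Such matches are common. Over 32851 promoter windows of the same length, chromosome 18 left out, GTAAACA or GTCAACA occurred in 5.17%. Of the 15 member windows 3 held them (1 of Bbc3 and both of Bcl2l11). TGACG occurred in 17.8% of all windows and in 2 of the members' (Bcl2 and Bbc3), GGAATG in 12.6% and 2 (Bcl2l1 and Mcl1), and the single p53 arm, searched by its name, in 7.13% and 1 (Bax). The E-box CACGTG occurred in 6.02% and 2 (Bax and Bbc3), the SF-1 letters AAGGTCA in 4.08% and 1 (Bcl2l1), and the full element TGACGTCA, which contains TGACG, in 1.55% and in none of the members'. A match is a description of letters and not a bound site.

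Levels of different genes can be compared only per length, so CPM were divided by the mean length of a gene's annotated transcripts. On that scale Mcl1, which encodes a short-lived guardian bound to BAK and BIM, was the most abundant member in both groups, at 174.2 ± 6.73 CPM per kilobase in WT (SD, n = 4) and 193.9 ± 7.93 in KO (SD, n = 3). In WT, Bak1 (94.1 ± 5.07) and Bcl2l1 (90.0 ± 3.61) followed, with overlapping ranges, although Bak1 was above Bcl2l1 in each WT library. Bax (61.0 ± 4.51) and the BH3-only gene Bad (35.9 ± 1.24) came next, each apart from its neighbours in WT. Bid (10.4 ± 0.526) and Bbc3 (9.71 ± 0.663) lay within each other's spread, and Bcl2l11 stood at 4.05 ± 0.235. Bcl2 (1.25 ± 0.0946) and Pmaip1 (0.370 ± 0.159) were the lowest. In KO, Bcl2l1 (124.2 ± 11.0) ranked above Bak1 (105.8 ± 10.4), and Bak1 above Bax (88.0 ± 17.4). The SDs of these neighbours overlapped, yet in each KO library Bcl2l1 was above Bak1 and Bak1 above Bax. Bbc3 (13.9 ± 3.24) and Bid (11.8 ± 0.445) also exchanged ranks, within their spread. With the longest transcript as the length, the WT ranks of all 10 members were the same. In KO, however, Bak1 (80.0) then stayed above Bcl2l1 (71.3), and Pmaip1 (0.494) and Bcl2 (0.493) were level, so the exchange of Bcl2l1 and Bak1 depends on the length used.

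**Figure D1:**
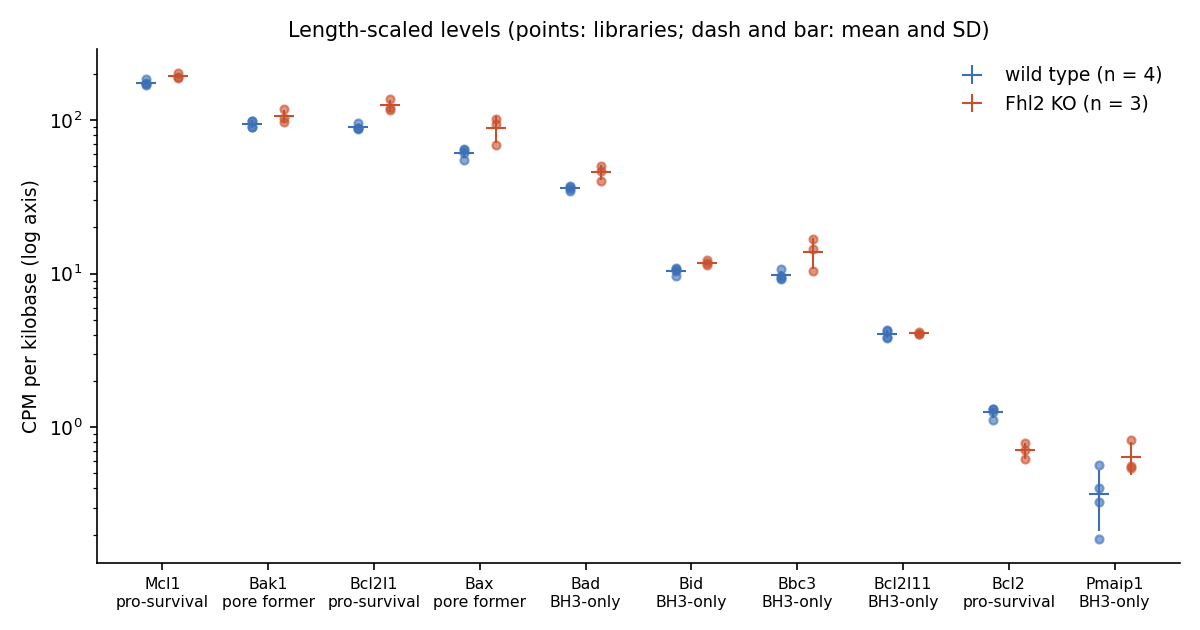
Length-scaled level of each member (CPM per kilobase of mean transcript length, log axis) in WT (blue, n = 4) and Fhl2 KO (red, n = 3), ordered by the WT mean; points are libraries, dashes and bars are the mean and SD. Mcl1, Bak1, Bcl2l1 and Bax lie above 60 CPM per kilobase in the WT mean, whereas Bcl2 and Pmaip1 lie near or below 1.

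Among the pro-survival genes, Bcl2l1 (mm10 chromosome 2, 152780668 to 152831728, minus strand) had 131.3, 140.1, 131.1 and 127.6 CPM in WT libraries 1 to 4 and 171.6, 175.8 and 201.4 CPM in KO libraries 1 to 3. All KO libraries were above all WT libraries, KO library 3 the highest. The log2 fold change was 0.47 (SE 0.0882, edgeR adjusted p = 0.00159). Corrected for length and GC it was 0.40 (edgeR adjusted p = 9.03e-04), and with KO library 1 as the only KO library it was 0.37 (edgeR adjusted p = 0.0142). Bcl2l1 passed in each of 17 alternative fits, with adjusted p of 1.12e-05 to 0.0193 (edgeR, DESeq2 or limma).

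Bcl2, the founding member of the family (chromosome 1, 106538178 to 106714274, minus strand), had 6.33, 5.58, 6.61 and 6.55 CPM in the WT libraries and 3.57, 3.96 and 3.10 CPM in the KO libraries. These CPM rest on 245 to 309 counts in WT and 140 to 186 in KO. All KO libraries were below all WT libraries. The log2 fold change was -0.82 (SE 0.152, edgeR adjusted p = 0.00134), and -0.81 with KO library 1 alone (edgeR adjusted p = 0.0257). After correction it was -0.41 with edgeR adjusted p = 0.0554, past the threshold no longer; with an offset for length alone it was -0.47 (edgeR adjusted p = 0.0421). Bcl2 has the longest transcripts of the members, with a mean of 5016 bases, in the bin of longest genes, whose median log2 fold change was -0.31.

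Mcl1 (chromosome 3, 95658788 to 95663176, plus strand) had 360.9, 370.1, 365.6 and 393.3 CPM in WT and 408.6, 433.7 and 401.4 CPM in KO. The groups did not overlap, yet the log2 fold change of 0.15 (SE 0.0842) had edgeR adjusted p = 0.179. It passed after correction (0.27, edgeR adjusted p = 0.0173), with the offset for length alone (edgeR adjusted p = 0.0220) and without KO library 1 (0.19, edgeR adjusted p = 0.0441).

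**Figure D2:**
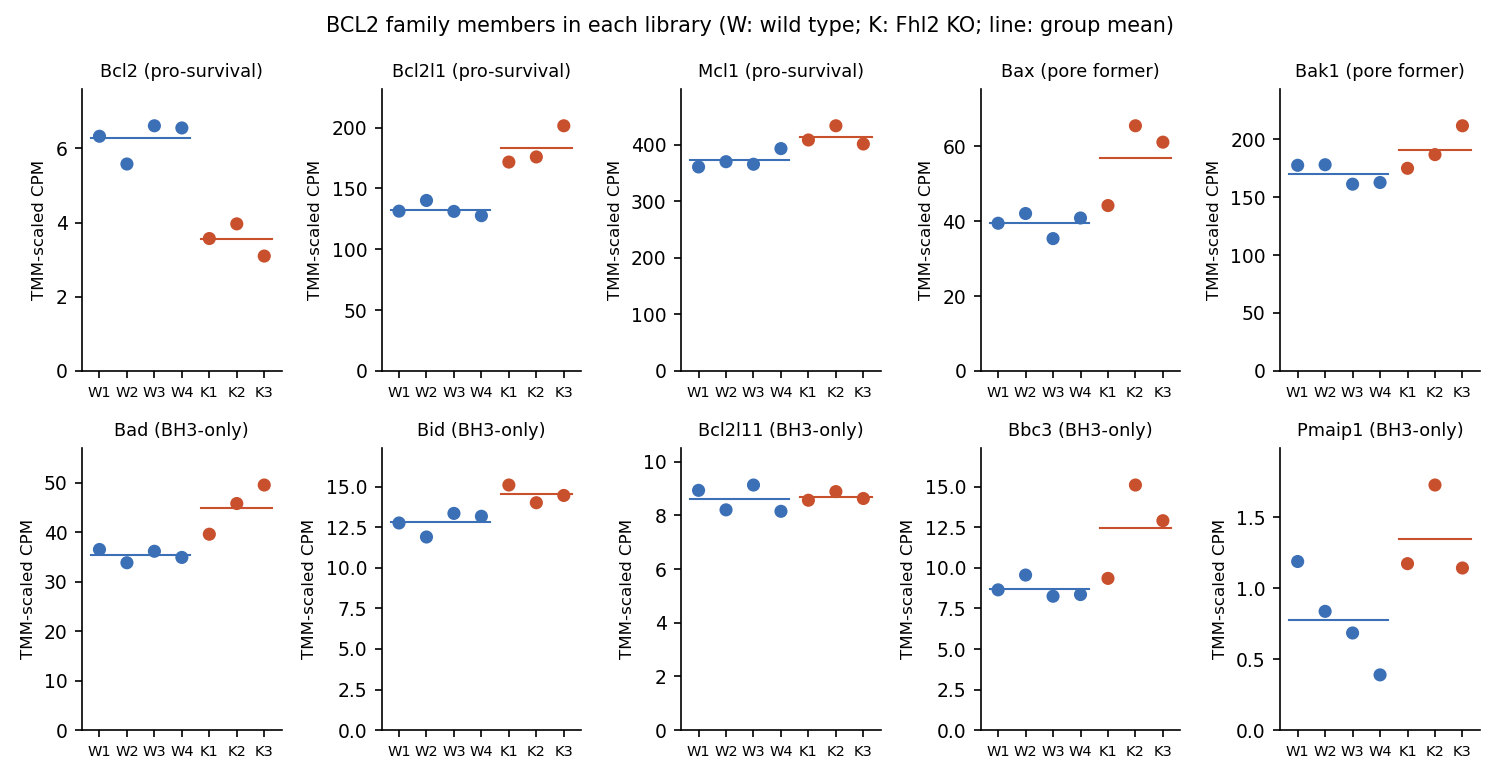
TMM-scaled CPM of the 10 members in each library, WT libraries 1 to 4 in blue and KO libraries 1 to 3 in red, with a line at each group mean and every axis starting at 0. Bcl2 is lower and Bcl2l1, Mcl1, Bax, Bad and Bid are higher in every KO library than in any WT library, KO library 1 being the lowest KO library for Bax, Bad and Bbc3.

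The pore formers showed a like-signed but unequal picture. Bax (chromosome 7, 45461697 to 45466898, minus strand) had 39.5, 42.1, 35.4 and 40.9 CPM in WT and 44.2, 65.5 and 61.1 CPM in KO. KO library 1 lay just above the highest WT library and the other KO libraries well above. The log2 fold change was 0.53 (SE 0.119, edgeR adjusted p = 0.00464), 0.20 after correction (edgeR adjusted p = 0.104) and 0.16 with KO library 1 alone (edgeR adjusted p = 0.491). Bax transcripts average 647 bases, in the bin of shortest genes, whose median log2 fold change was 0.30. Bak1 (chromosome 17, 27019810 to 27029009, minus strand) had 177.5, 178.0, 161.2 and 162.6 CPM in WT and 174.9, 186.7 and 211.6 CPM in KO, so the groups overlapped. Its log2 fold change was 0.17 (SE 0.0914, edgeR adjusted p = 0.173). Bak1 passed without KO library 1 (0.25, edgeR adjusted p = 0.0158) and with limma voom quality weights (0.23, limma adjusted p = 0.0266).

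BH3-only genes sense damage and loss of survival signals. Bad, whose protein is kept inactive by growth-factor-driven phosphorylation (chromosome 19, 6941861 to 6951899, plus strand), had 36.5, 33.8, 36.1 and 34.9 CPM in WT and 39.6, 45.8 and 49.5 CPM in KO. All KO libraries were above all WT libraries. The log2 fold change was 0.35 (SE 0.0965, edgeR adjusted p = 0.0136), and it failed the threshold without KO library 3 (0.27, edgeR adjusted p = 0.0986), with the replicate number as a block (0.34, edgeR adjusted p = 0.0599), after correction (0.11, edgeR adjusted p = 0.321) and with KO library 1 alone (0.16, edgeR adjusted p = 0.464).

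Bbc3, which encodes PUMA, a p53 and FOXO target (chromosome 7, 16308393 to 16318205, plus strand), had 8.65, 9.56, 8.26 and 8.36 CPM in WT and 9.36, 15.1 and 12.9 CPM in KO. KO library 1 fell inside the WT range and the other KO libraries above it. The log2 fold change was 0.52 (SE 0.144, edgeR adjusted p = 0.0139). It was not past the threshold without KO library 2 (0.37, edgeR adjusted p = 0.0768), without KO library 3 (0.49, edgeR adjusted p = 0.0760), after correction (0.31, edgeR adjusted p = 0.0587) or with KO library 1 alone (0.10, edgeR adjusted p = 0.804).

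Pmaip1, which encodes NOXA, the BH3-only partner of MCL-1 (chromosome 18, 66458533 to 66465565, plus strand), was near the limit of depth, with 46, 42, 32 and 17 counts in WT and 46, 81 and 52 in KO. In CPM these were 1.19, 0.837, 0.684 and 0.389 in WT and 1.17, 1.73 and 1.14 in KO, and the groups overlapped through WT library 1. The log2 fold change of 0.81 (SE 0.345, edgeR adjusted p = 0.0881) passed without WT library 1 (1.09, edgeR adjusted p = 0.0403). Bid, cleaved by caspase-8 to link death receptors to mitochondria (chromosome 6, 120891930 to 120916853, minus strand), had 12.8, 11.9, 13.4 and 13.2 CPM in WT and 15.1, 14.0 and 14.5 CPM in KO. The groups did not overlap, but the log2 fold change of 0.18 (SE 0.106) had edgeR adjusted p = 0.207. Bcl2l11, which encodes BIM (chromosome 2, 128126038 to 128162547, plus strand), had 8.93, 8.21, 9.13 and 8.15 CPM in WT and 8.57, 8.89 and 8.63 CPM in KO. The KO values lay inside the WT range (log2 fold change 0.02, SE 0.119, edgeR adjusted p = 0.938).

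**Figure D3:**
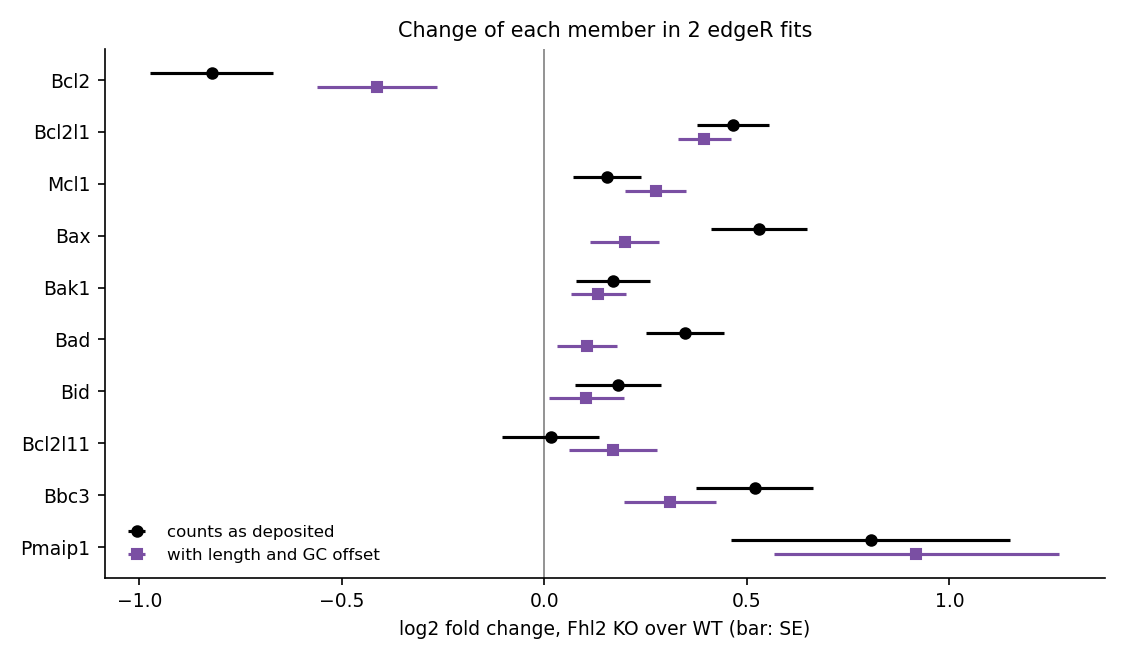
Log2 fold change of each member, Fhl2 KO over WT, with SE, from the counts as deposited (black circles) and with an offset for transcript length and GC content (purple squares). Bcl2l1 is at 0.47 and 0.40 in the 2 fits, whereas Bax goes from 0.53 to 0.20 and Bcl2 from -0.82 to -0.41.

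Annotated exons of some members share bases with another gene, and the strand setting of the counting is not given in the sources used here. Opposite-strand exons cover 25.5% of the exonic bases of Bak1 (Ggnbp1), 20.5% of Bad (Gpr137), 17.7% of Bid (Bcl2l13) and 6.09% of Bcl2 (D630008O14Rik), and a same-strand model covers 12.2% of Bax (Gm45808). No other exon overlaps Bcl2l1, Mcl1, Bcl2l11, Bbc3 or Pmaip1.

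Set beside genes of like length, the members that rose were above the median of their length bin (10 bins over all genes tested with a length). These members were already called higher in the same fit, so the comparison is no further test. Bcl2l1 at 0.47 compares with a bin median of 0.03, Bbc3 at 0.52 and Bad at 0.35 with 0.22, and Bax at 0.53 with 0.30. Mcl1 at 0.15, Bcl2l11 at 0.02 and Pmaip1 at 0.81 fall in a bin with a median of -0.10, and Bak1 at 0.17 in one of -0.04. Bid at 0.18 compares with 0.15. Bcl2 at -0.82 lies below its bin's median of -0.31. Of all genes in the bin of Bax 27.1% were called higher, in that of Bad and Bbc3 30.3%, and in that of Bcl2l1 13.8%. In the bin of Bcl2 34.9% were called lower. The length trend itself moves with the genotype, and its part in each change was not tested beyond the corrected fit.

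**Figure D4:**
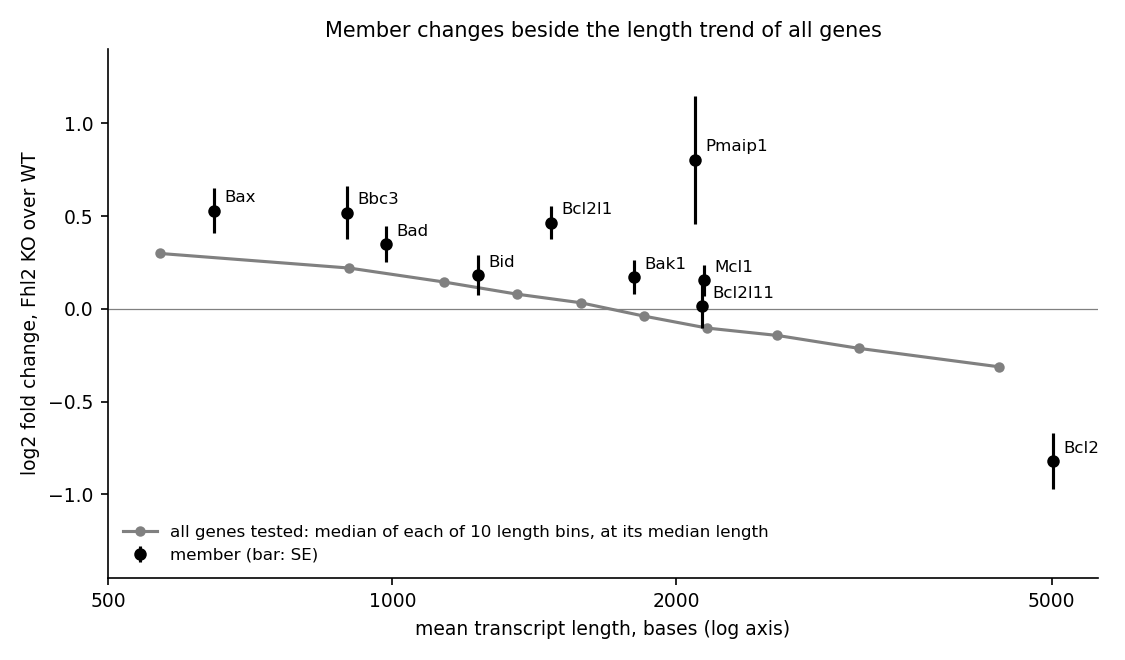
Log2 fold change (Fhl2 KO over WT, with SE) of each member against its mean transcript length on a log axis; the grey line joins the medians of 10 length bins of all genes tested, each drawn at its bin's median length. All members but Bcl2 lie above the grey line, Bid by the least.

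The balance of the chosen members was taken in each library as the summed CPM per kilobase of the 3 pro-survival genes divided by that of the 7 pro-death genes. It is a description, with no test. Further family genes are not in these sums. Among them, Bok (named after its value was seen) stood at 52.2 ± 4.88 CPM per kilobase in WT and 59.8 ± 8.92 in KO. The pro-survival Bcl2l2 stood at 25.6 ± 1.52 and 20.8 ± 2.63 (SDs over 4 WT and 3 KO libraries). The pro-survival sum was 265.4 ± 6.12 CPM per kilobase in WT (SD, n = 4) and 318.8 ± 9.16 in KO (SD, n = 3), and the pro-death sum 215.4 ± 8.02 and 269.9 ± 32.5. Both sums were higher in every KO library than in any WT library. The ratio was 1.17, 1.21, 1.27 and 1.28 in WT libraries 1 to 4 and 1.33, 1.14 and 1.11 in KO libraries 1 to 3. KO library 1 was thus above all WT libraries and KO libraries 2 and 3 below them, and the means of 1.23 ± 0.0512 in WT (SD, n = 4) and 1.19 ± 0.117 in KO (SD, n = 3) lay within the spread. KO libraries 2 and 3 are also those with the steepest dependence on transcript length.

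With each library's length and GC trend divided out, an alternative added after the data had been seen, the ratio was 1.11, 1.17, 1.18 and 1.17 in WT and 1.30, 1.31 and 1.27 in KO, and the groups no longer overlapped. The direction of the balance thus depended on that step. On the log2 scale the KO minus WT difference was -0.05 as counted and 0.16 corrected. As the mean log2 level of the 3 pro-survival genes minus that of the 7 pro-death genes, it was -0.44. There the scarce Bcl2 weighs as much as Mcl1, and Pmaip1, near the limit of depth, as much as Bax. The definition by mean log2 levels was not computed after correction. That definition also separated the groups, but with KO below WT: back on the linear scale it was 2.10 to 2.61 in WT and 1.88, 1.63 and 1.63 in KO. Without Mcl1 on the pro-survival side it was 0.13.

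As counted, the make-up of the pro-survival side differed between the groups. Bcl2l1 supplied 34.4%, 35.3%, 34.1% and 31.9% of the summed pro-survival level in the WT libraries and 37.8%, 37.0% and 42.1% in the KO libraries. Mcl1 supplied 64.3% to 67.7% in WT and 57.8% to 62.8% in KO, and Bcl2 0.413% to 0.504% and 0.190% to 0.245%. None of the 3 shares overlapped between the groups, but as parts of the same sum they are not separate results. The shares were not computed after correction. There the log2 fold changes of Bcl2l1 and Mcl1 were 0.40 and 0.27, against 0.47 and 0.15 as counted. On the pro-death side, Bak1 supplied 42.4% to 44.5% in WT and 36.4% to 41.6% in KO, and Bax 26.6% to 29.7% and 29.4% to 35.6%, which overlapped. The corrected log2 fold changes were 0.13 for Bak1 and 0.20 for Bax, against 0.17 and 0.53 as counted.

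Ratios of single genes restate the members' changes within each library and are not further results. Bcl2l1 exceeded Bcl2 72.5 ± 8.86 times per kilobase in WT (SD, n = 4) and 178.8 ± 37.6 times in KO (SD, n = 3), with no overlap, and 83.0 ± 6.41 and 148.6 ± 29.1 times after correction. The ratio of Bcl2 to Bax, often quoted as an index of apoptotic priming, was 0.0206 ± 0.00286 in WT and 0.00825 ± 0.00198 in KO (SD, n = 4 and 3), and 0.0166 ± 0.00124 and 0.0108 ± 0.00106 corrected. The ratio of Bcl2l1 to Bax was 1.48 ± 0.107 in WT and 1.44 ± 0.264 in KO and overlapped, as it did after correction.

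**Figure D5:**
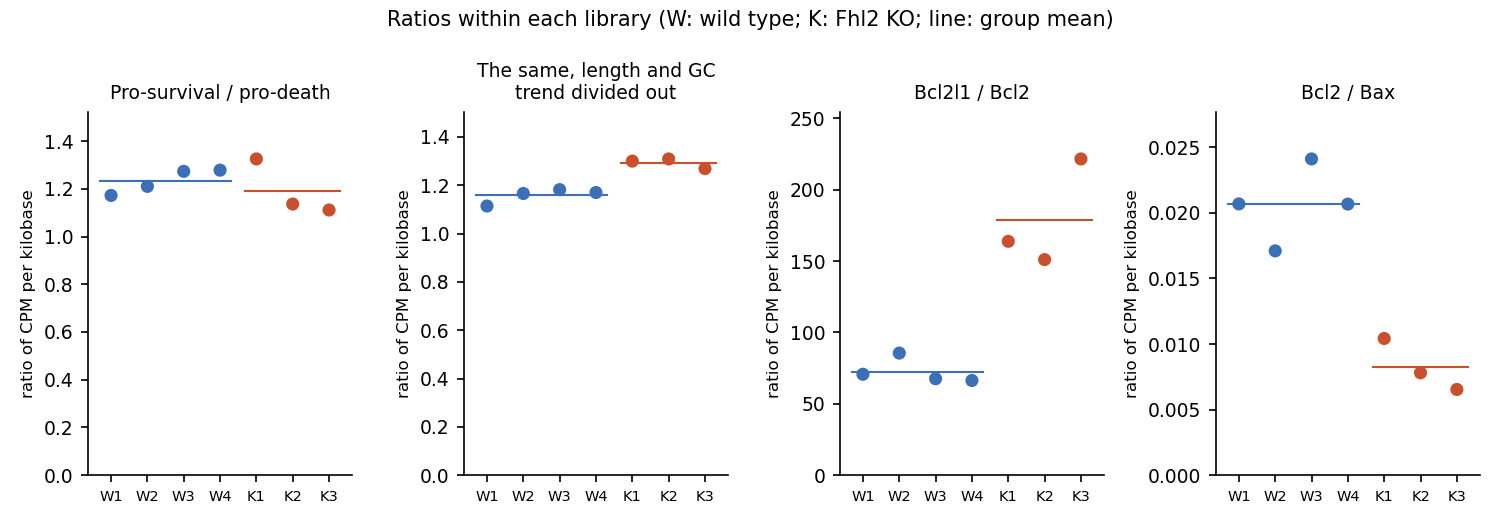
Ratios of CPM per kilobase within each library (WT libraries 1 to 4 blue, KO libraries 1 to 3 red, line at the group mean): pro-survival over pro-death sum as counted and with the length and GC trend divided out, Bcl2l1 over Bcl2, and Bcl2 over Bax. The first ratio overlaps between groups (1.11 to 1.33 in KO, 1.17 to 1.28 in WT), the second does not, and the other two separate the groups in opposite directions.

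Of 15 further genes of the family or related to it, 9 were tested, 1 rose, 1 fell and 7 did not pass (median log2 fold change 0.20). Bnip3, a mitochondrial BH3-like protein of hypoxia and mitophagy, rose from 21.0 ± 1.59 to 30.1 ± 4.94 CPM in KO (SDs over 4 WT and 3 KO libraries; log2 fold change 0.52, edgeR adjusted p = 0.00359; corrected 0.36, edgeR adjusted p = 0.00965). With KO library 1 as the only KO library its log2 fold change was 0.28. The 18 calls in this and the following lists are 28.6% of the 63 genes tested in them, against 29.0% of all genes tested. Their number thus does not set the lists together apart. Single lists ranged from 1 of 6 called (inhibitors of apoptosis) to 5 of 9 (outer membrane), and no list was tested as a set. Bcl2l2, the pro-survival BCL-W, fell from 45.4 ± 2.69 to 36.8 ± 4.67 CPM (-0.30, edgeR adjusted p = 0.0329; corrected -0.31), a call that ended on leaving out any of WT libraries 1, 3 and 4 and KO libraries 2 and 3 (edgeR adjusted p between 0.0636 and 0.153). Per kilobase Bcl2l2 stood at 25.6 ± 1.52 in WT, above Bcl2. The BH3-only Bmf (0.30, edgeR adjusted p = 0.0601) and the mitochondrial Bcl2l13 (-0.27, edgeR adjusted p = 0.0765, and -0.41 with edgeR adjusted p = 0.00112 without KO library 1) did not pass. The leukocyte-associated Bcl2a1a had 0 counts in all libraries.

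Downstream of the pores, 13 genes of the released factors, the apoptosome and the caspases were tested: 2 rose, 1 fell and 10 did not pass (median 0.11). Apaf1, the scaffold that cytochrome c assembles, fell from 54.5 ± 4.11 to 39.7 ± 5.78 CPM in KO (SDs over 4 WT and 3 KO libraries; log2 fold change -0.46, edgeR adjusted p = 0.00541; corrected -0.18, edgeR adjusted p = 0.0879). Casp9, the caspase it activates, rose from 18.8 ± 2.34 to 23.3 ± 1.29 CPM (0.31, edgeR adjusted p = 0.0442; corrected 0.23, edgeR adjusted p = 0.0677). The executioner Casp6 rose from 46.9 ± 3.40 to 58.1 ± 3.54 CPM (0.31, edgeR adjusted p = 0.0195; corrected 0.37), and the initiator-like Casp2 had a value of 0.21 (edgeR adjusted p = 0.122, and 0.33 with edgeR adjusted p = 0.00368 without KO library 1). Without KO library 3 the edgeR adjusted p was 0.0522 for Apaf1, 0.0964 for Casp6 and 0.170 for Casp9. Casp6 also failed without WT library 1 (0.0549) or 4 (0.0721), and Casp9 without WT library 3 (0.116) or 4 (0.154), all edgeR adjusted p.

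Of 9 inhibitor-of-apoptosis genes, 6 were tested, 1 fell and 5 did not pass (median -0.02). Birc6, a giant ubiquitin ligase that restrains caspases, fell from 104.0 ± 8.28 to 67.7 ± 17.6 CPM in KO (SDs over 4 WT and 3 KO libraries; log2 fold change -0.62, edgeR adjusted p = 0.00748; corrected -0.25, edgeR adjusted p = 0.0590), a call that leaving out KO library 3 ended (edgeR adjusted p = 0.0576). Xiap, the direct caspase inhibitor, had -0.21 (edgeR adjusted p = 0.103; corrected 0.02). The mitotic Birc5 had -0.08 (corrected 0.08; 0.01 without KO library 1), and the scarce Naip1 had 1.18 (edgeR adjusted p = 0.0786; corrected 1.51, edgeR adjusted p = 0.0279).

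Among 13 genes of the death receptor pathway, 9 were tested, 1 rose, 2 fell and 6 did not pass (median 0.07). Ripk1, a kinase of the TNF receptor complex, fell from 45.2 ± 3.33 to 32.9 ± 7.02 CPM in KO (SDs over 4 WT and 3 KO libraries; log2 fold change -0.46, edgeR adjusted p = 0.0109; corrected -0.21, edgeR adjusted p = 0.0844). Cflar, the decoy that blocks caspase-8, fell from 50.7 ± 5.02 to 40.0 ± 2.93 CPM (-0.34, edgeR adjusted p = 0.0179; corrected -0.23, edgeR adjusted p = 0.0385). The adaptor Tradd rose from 12.0 ± 0.884 to 15.2 ± 1.75 CPM (0.34, edgeR adjusted p = 0.0360; corrected 0.06, edgeR adjusted p = 0.665), a call lost without any 1 of the 7 libraries except KO library 1 (edgeR adjusted p between 0.0508 and 0.157). Casp8 had -0.21 (edgeR adjusted p = 0.115). Leaving out KO library 3 ended the call of Ripk1 (edgeR adjusted p = 0.0843), and leaving out any of WT libraries 3 and 4 and KO libraries 2 and 3 that of Cflar (edgeR adjusted p between 0.0518 and 0.0946). Fasl had 0 counts in all libraries.

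Of 18 genes known to act on the family's genes or proteins, 17 were tested, 1 rose, 3 fell and 13 did not pass (median -0.07). Fbxw7, which marks MCL-1 for destruction, fell from 20.2 ± 2.16 to 14.1 ± 1.54 CPM in KO (SDs over 4 WT and 3 KO libraries; log2 fold change -0.51, edgeR adjusted p = 0.00468; corrected -0.22, edgeR adjusted p = 0.0869). Usp9x, which protects MCL-1 from it, fell from 145.4 ± 8.99 to 116.7 ± 18.0 CPM (-0.32, edgeR adjusted p = 0.0305; corrected -0.06, edgeR adjusted p = 0.702). Foxo1, an activator of Bcl2l11 and Bbc3, fell from 480.7 ± 6.98 to 392.5 ± 26.7 CPM (-0.29, edgeR adjusted p = 0.0181), but its sign turned after correction (0.15, edgeR adjusted p = 0.173). Ddit3, the stress factor CHOP, rose from 16.2 ± 0.548 to 19.9 ± 0.663 CPM (0.30, edgeR adjusted p = 0.0308). Leaving out any of WT libraries 1 and 4 and KO libraries 2 and 3 ended the call of Foxo1 (edgeR adjusted p between 0.0591 and 0.0815). Leaving out any of these or WT library 3 ended those of Usp9x (0.0577 to 0.192) and Ddit3 (0.0509 to 0.0989).

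In the outer membrane and fission and fusion list, 9 of 9 genes were tested, 3 rose, 2 fell and 4 did not pass (median 0.03). Of all genes tested, 29.0% passed. Vdac2, the channel that holds BAK and BAX at the membrane, rose from 299.8 ± 11.3 to 385.1 ± 46.2 CPM in KO (SDs over 4 WT and 3 KO libraries; log2 fold change 0.36, edgeR adjusted p = 0.0101; corrected 0.27, edgeR adjusted p = 0.0173, but 0.0686 with the offset for length alone), and its relative Vdac3 from 376.5 ± 17.6 to 466.6 ± 66.1 CPM (0.31, edgeR adjusted p = 0.0273; corrected 0.39). The fission factor Fis1 rose by 0.38 (edgeR adjusted p = 0.0113; corrected 0.11, edgeR adjusted p = 0.242), and Opa1, which keeps cristae closed over cytochrome c, fell from 79.5 ± 6.91 to 60.2 ± 5.47 CPM (-0.40, edgeR adjusted p = 0.00703; corrected -0.12, edgeR adjusted p = 0.207). The fusion gene Mfn1, named after its value was seen, fell as well (-0.27, edgeR adjusted p = 0.0371). Without KO library 3 the edgeR adjusted p was 0.0717 for Vdac2, 0.176 for Vdac3, 0.0861 for Fis1, 0.0565 for Opa1 and 0.176 for Mfn1. Vdac3 also failed on leaving out WT library 1, 3 or 4 or KO library 2 (edgeR adjusted p between 0.0634 and 0.0840), and Mfn1 without any 1 WT library or KO library 2 (0.0640 to 0.116).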

How the data were processed

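Whole-number read counts per gene symbol, not normalized, were deposited by the authors in 1 table with a column for each of the 7 libraries. Per the labels' protocols, RNA was extracted with TRIzol and made into stranded mRNA libraries. The submitters' processing notes list, without roles or order, DESeq2 1.28.1, Cufflinks 2.2.1, featureCounts 1.6.4, HISAT2 2.2.1, SAMtools and fastp, and the build mm10. Which annotation and strand setting were used is not given in the sources used here.

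The test was edgeR 4.0.16 (R 4.3.3; TMM scaling, filterByExpr at a minimum count of 10, robust glmQLFit, glmQLFTest, genotype as the only term), adjusted by Benjamini-Hochberg over 15798 genes. Genes not tested held 0.0511% of counts. SE were derived from the F statistic. Transcript lengths and GC content came from GENCODE M21 of the same build (98.6% of genes tested), and the offset used natural splines with 4 degrees of freedom per library. No pair of libraries of a group was duplicated (chi-square per degree of freedom at least 9.73). The edgeR fit and the offset for length alone were tested on simulated data. The GC term of the offset, the balance and the motif search were not.

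The members, the gene lists and the corrections were chosen with earlier results of these data known. Named were all members, Fhl2, and up to 4 genes with the smallest p per list; genes outside this rule are marked. Alternatives were DESeq2 1.42.0, limma 3.58.1 voom with quality weights, other scalings and filters, a replicate block, offsets for length with or without GC, each library left out, KO library 1 alone, and other definitions of the balance.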

Additional observations from a re-analysis of the deposited data

Results flagged for a closer look

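Of 57 values checked over the 4 WT libraries (levels of the genes named and ratios within the family), 2 had a library far from the other WT libraries by Dixon's ratio past its 95% critical value. Chance marks about 1 in 20. Xiap stood at 57.5 CPM in WT library 3 and at 48.3 to 49.4 CPM in the other WT libraries. Tradd stood at 10.7 CPM in WT library 4 and at 12.3 to 12.6 CPM in the others. No member of the family was marked in this way.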

How the results depend on the processing

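Over 18 alternatives (17 distinct fits, since libraries 1 to 3 without a block are the fit without WT library 4) the count of 4588 genes called became 781 with KO library 1 alone and 2960 for the 6 libraries numbered 1 to 3 without a block, and ranged from 1657 to 6740 with each library left out (2994 without WT library 3, 2960 without WT library 4, 1657 without KO library 3). The 5 members called became 3 with a filter of 10 CPM in 3 libraries (which leaves Bcl2 and Bbc3 untested), 2 with the length and GC offset, 3 with the length offset, 2 with KO library 1 alone, and 3 to 7 with each library left out. The 18 calls in the other apoptosis lists became 31 with voom quality weights, 10 with the replicate block, 8 for the same 6 libraries without it, 0 with KO library 1 alone, and 2 to 32 with each library left out. The log2 difference in balance of -0.054 became 0.13 without Mcl1, -0.44 as mean log2 levels, 0.16 with the trend divided out, 0.10 with KO library 1 alone, and -0.13 to -0.0066 with each library left out. Over all genes, 4058 of 9203 tested passed with the filter of 10 CPM. With the length and GC offset 3768 of 15574 passed, and with the length offset 3409 of 15574. Where an alternative moved a count, the cause was not tested. Signs turned for Bcl2l11 (-0.0079 with the replicate block, -0.0090 for the same 6 libraries without it and without WT library 4, -0.0085 with KO library 1 alone, -0.0090 to 0.049 over libraries left out), Xiap (0.019 with the length and GC offset, 0.049 with the length offset), Birc5 (0.084 and 0.034 in those, 0.013 without KO library 1, -0.12 to 0.013 over libraries left out), Foxo1 (0.15, 0.12) and Casp2 (-0.014 with KO library 1 alone), none past the threshold there. Library totals alone moved the calls to 2630 higher and 2129 lower, from 2128 and 2460, and the median of all genes to 0.04.

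Same-numbered libraries did not deviate together (correlations of 0.045, 0.0019 and -0.050), but so few libraries cannot decide whether the numbers pair samples. With the replicate block 4 members were called, Bad losing its call. Over all genes 3301 were called with the block and 2960 for the same 6 libraries without it. With 1 KO library the spread came from WT. Depth limits Pmaip1 most, at 17 to 81 counts.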
